A study of Homo sapiens with 24 samples.

Results

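The resting transcriptome of HK-2 cells was described from the 5 libraries of cells kept in normoxia with solvent alone, of 24 libraries in the series. These libraries were picked out by their labels and not by a measured value, though with earlier results of these data known. Resting here means untreated, and not without cell division. HK-2 is an immortalised line of human proximal tubular epithelial cells. The study as a whole measured how an activator of soluble guanylate cyclase changed such cells in hypoxia and after TGF-β1, and the solvent libraries are its untreated state. Per the labels, the cells were plated in 6-well plates in medium with 10% fetal bovine serum, given 6 h to adhere, deprived of serum overnight and then kept for 24 h with the vehicles of the agents, 0.0001% DMSO, 4 µM HCl and 0.0001% BSA. Poly(A) RNA-seq libraries were made from 400 ng of RNA. All 5 cultures came from 1 cell line, and the labels number them as replicates without saying what separated them, so the spread printed here is that between these 5 cultures and may be partly technical.

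The proximal tubule reclaims most of the filtered glucose, amino acids, phosphate, bicarbonate and protein. Its cells do so with a dense apical brush border, apical sodium-coupled carriers, a basolateral sodium pump, and the endocytic receptors megalin (LRP2) and cubilin (CUBN). Organic anion and cation transporters on the basolateral side bring drugs and metabolites into the cell for secretion. When proximal cells are injured, or grown outside the body, they are known to lose parts of this programme and to switch on genes of injury and repair such as HAVCR1 (KIM-1), VIM (vimentin) and SPP1 (osteopontin).

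The libraries held 87762210 to 99779244 estimated counts. Levels are given as CPM, counts per 1000000 counts of the library, after TMM scaling, and errors are the SD over the 5 libraries (n = 5). A gene was called present where every library had at least 1 CPM, near zero where every library was under 0.1 CPM, and low otherwise. Of 65180 gene IDs, 14495 were present (22.2%) and 43254 near zero (66.4%), and 30882 had 0 counts in all 5 libraries, which allows up to 0.00654 CPM at 3 counts over the pooled libraries. Of 19277 protein-coding genes, 12210 were present (63.3%), 2222 were low (11.5%) and 4845 were near zero (25.1%), and every count of present members below is to be read against these shares. Replicates 3 and 4 stood apart from replicates 1, 2 and 5: on the first principal component, with 60.4% of the variance, their scores were 13.0 and 13.6 and those of the others between -11.3 and -6.77. Chi-square per degree of freedom between library pairs was 5.42 for replicates 3 and 4, 6.06 to 8.28 among replicates 1, 2 and 5, and 26.7 to 34.7 across the sets, so no pair matched within sampling noise. The labels give no batch that separates these sets. Mitochondrially encoded transcripts took 7.09% and 7.13% of the counts in replicates 3 and 4 and 7.32% to 7.46% in the other 3. Without replicates 3 and 4, 14622 IDs were present, and without replicates 1, 2 and 5, 14872. Since every library must pass, fewer libraries raise this count by themselves, so these 2 counts do not compare the sets.

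The most abundant messages were those of the mitochondrial genome, of translation, of the cytoskeleton and of the extracellular matrix. The 100 most abundant genes took 20.1% ± 0.487 of all counts, and 12 of them were mitochondrially encoded, 14 encoded cytosolic ribosomal proteins and 5 were IDs without a symbol. MT-CO1, a subunit of cytochrome c oxidase, led with 15846, 15894, 14839, 14858 and 16208 CPM in replicates 1 to 5. EEF1A1, the elongation factor that brings aminoacyl-tRNA to the ribosome, stood at 11045, 10626, 9519, 9484 and 11082 CPM and was lowest in replicates 3 and 4. FN1, which encodes the matrix glycoprotein fibronectin, was the leading transcript of a secreted protein in CPM, at 5236, 5440, 5311, 5179 and 5244 CPM. Its libraries lay within a narrow range and replicates 3 and 4 did not stand apart.

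**Figure D1:**
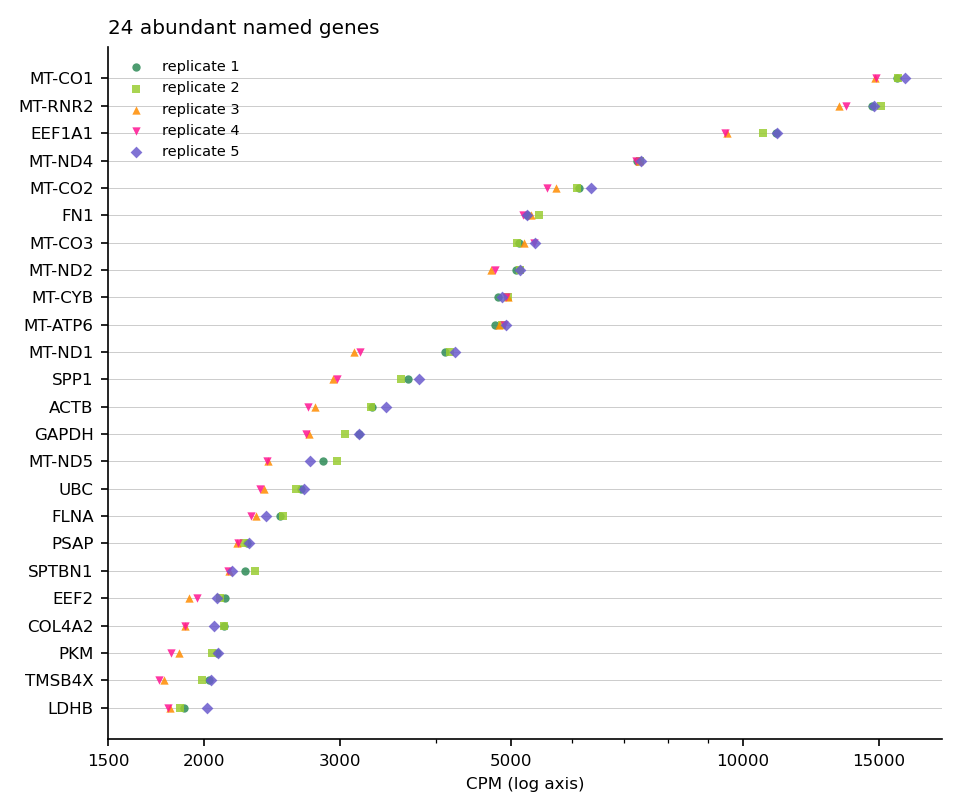
24 named genes of the highest mean CPM, with 1 symbol for each of the 5 normoxic solvent libraries on a log axis in CPM. 10 of the 24 are mitochondrially encoded, and EEF1A1, FN1 and SPP1 lead the nuclear genes drawn.

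CPM favours long transcripts, so levels of different genes were compared per kb. Divided by the length of the merged exons of each gene (GENCODE 29), the leading nuclear genes were TMSB10, an actin-sequestering thymosin, at 1784 ± 175 CPM per kb, EEF1A1 at 1740 ± 134 CPM per kb and SPP1 at 1463 ± 176 CPM per kb. SPP1 encodes osteopontin, a secreted phosphoprotein of injured tubules, and its CPM values were 3674, 3600, 2933, 2974 and 3794. The ferritin chains FTL and FTH1, which store iron, followed at 1320 and 788 CPM per kb, with TMSB4X at 1123, GAPDH at 996 and ACTB at 884 CPM per kb. This order depended on the length used: divided by the longest transcript instead, EEF1A1 at 2331 and SPP1 at 2040 CPM per kb lay above TMSB10, which stayed at 1784. GAPDH then had 1583, ACTB 1385 and FTH1 1301 CPM per kb. Of 26 interferon response genes, 22 were present, among them BST2 at 136 ± 7.80 CPM, IFI44L at 172 ± 8.07 CPM and IFIT3 at 92.2 ± 3.34 CPM. IFI27, another such gene, had 0 counts in all 5 libraries, and MX2 stood at 0.0331 CPM. The basement membrane chain COL4A2 had 2015 ± 120 CPM, and the fibrillar collagen chains COL1A1 and COL1A2 had 38.7 ± 2.86 and 0.00445 ± 0.00610 CPM.

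The marker genes given for these cells were all present. PAX8, the transcription factor of nephron epithelium, had 280, 290, 258, 247 and 279 CPM in replicates 1 to 5, KRT18, a keratin of simple epithelia, had 353, 341, 321, 315 and 354 CPM, and VIM, the intermediate filament protein of mesenchymal and injured epithelial cells, had 470, 449, 394, 397 and 471 CPM. For each of the 3 genes the lowest libraries were replicates 3 and 4, and the highest library was 1.12 to 1.19-fold above the lowest. Per kb, KRT18 at 105 and VIM at 84.6 CPM per kb lay above PAX8 at 36.6 CPM per kb.

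Transcription factors of the developing and adult nephron were present in 21 of 34 cases (61.8%). SALL1, needed for outgrowth of the kidney rudiment, had 153, 157, 135, 128 and 157 CPM. It was lowest in replicates 3 and 4. SIM1 had 130 ± 8.93 CPM, LHX1, a homeodomain factor of early nephron formation, 55.1 ± 2.10 CPM and IRX3 51.4 ± 7.56 CPM. PAX2 was present at 9.63 ± 1.09 CPM. HNF4A, a nuclear receptor known as a main driver of proximal tubule genes, was near zero at 0.0102, 0, 0.0641, 0.0336 and 0.0114 CPM, that is 11 counts over the 5 libraries, while its relative HNF4G was present at 28.3 ± 1.34 CPM. WT1 of podocytes, FOXI1 of intercalated cells, IRX1 and IRX2 of the thick ascending limb, EMX2 and TFAP2B had 0 counts in all 5 libraries.

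Of 24 genes of keratins, cadherins and epithelial adhesion, 18 were present (75.0%). CDH6, the cadherin known from proximal tubule precursors, had 988, 995, 839, 820 and 980 CPM, CDH2 (N-cadherin), the usual cadherin of mature proximal tubules, 76.9 ± 4.30 CPM, CDH16 (kidney cadherin) 56.7 ± 4.78 CPM and CDH1 (E-cadherin) 31.0 ± 0.929 CPM. Per kb, CDH6 at 74.7 CPM per kb lay above CDH2 and CDH16, both at 15.5, and CDH1 at 5.02. EPCAM, an adhesion molecule usual in distal nephron epithelium, reached 145 CPM per kb. Of 62 keratin genes, pseudogenes included, 8 were present, led by KRT8 at 662 ± 43.5, KRT18 and KRT19 at 113 ± 11.9 CPM, and 36 had 0 counts, among them KRT5 and KRT14 of stratified epithelia. Of 23 claudins, the sealing and pore-forming proteins of tight junctions, 8 were present. CLDN2, the cation pore of the proximal tubule, had 215, 220, 169, 169 and 228 CPM, CLDN1 455 ± 67.4 CPM and CLDN4 297 ± 34.9 CPM, and CLDN10, whose product forms the anion pore of the proximal tubule, was near zero at 0.0285 CPM.

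Transporters of the proximal tubule were present in 26 of 57 cases (45.6%), low in 12 and near zero in 19, of which 12 had 0 counts in all 5 libraries. The present share lay below the 63.3% of all protein-coding genes. The sodium pump subunit ATP1B1 had 355 ± 17.5 CPM, and the pump's regulator FXYD2 had 365, 355, 293, 285 and 370 CPM. SLC4A4, the sodium bicarbonate cotransporter that returns bicarbonate to the blood, had 165, 166, 151, 150 and 153 CPM. SLC2A2 (GLUT2), the basolateral glucose exit, had 42.7, 42.3, 33.4, 30.3 and 43.7 CPM, lowest in replicates 3 and 4.

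The apical carriers that define the segment were weaker. SLC9A3 (NHE3), the sodium-proton exchanger, had 8.63, 9.57, 12.1, 12.3 and 8.27 CPM and was highest in replicates 3 and 4. SLC34A1, the phosphate carrier under control of parathyroid hormone, had 2.88, 2.82, 3.20, 2.78 and 2.38 CPM. SLC5A2 (SGLT2), the main glucose carrier of the early tubule, had 1.46, 1.53, 2.13, 1.70 and 1.67 CPM, and its late-tubule relative SLC5A1 (SGLT1) had 0 counts in all 5 libraries. SLC3A1, the heavy chain of the cystine carrier, was present at 4.57, 4.52, 2.64, 2.37 and 4.50 CPM, lowest in replicates 3 and 4, and its light chain SLC7A9 was low at 0.122 ± 0.0163 CPM. SLC6A19, the main carrier of neutral amino acids, was near zero at 0.0151 CPM, and SLC6A20, a carrier of proline, was present at 4.85 ± 0.811 CPM. AQP1, the water channel of the proximal tubule, had 0.0203, 0.0221, 0.0214, 0.0224 and 0.0343 CPM, 11 counts over the 5 libraries.

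Of the carriers of drugs and organic ions, several were near zero or at 0 and others were present. The uptake carriers SLC22A6 (OAT1), SLC22A8 (OAT3) and the urate exchanger SLC22A12 (URAT1) had 0 counts, and the uptake carrier SLC22A2 (OCT2) stood at 0.0282 CPM. SLC47A1 (MATE1), an apical antiporter that extrudes organic cations, stood at 0.00458 CPM. SLC22A5 (OCTN2), a carnitine carrier, was present at 22.7 ± 0.658 CPM. Of the ATP-driven efflux pumps, ABCC4 (MRP4) had 118, 116, 116, 117 and 111 CPM and ABCB1 (P-glycoprotein) had 70.4, 71.8, 60.7, 63.2 and 70.5 CPM. ABCC2 (MRP2) was present at 4.98 ± 0.590 CPM and ABCG2 was low at 0.362 ± 0.0774 CPM.

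**Figure D2:**
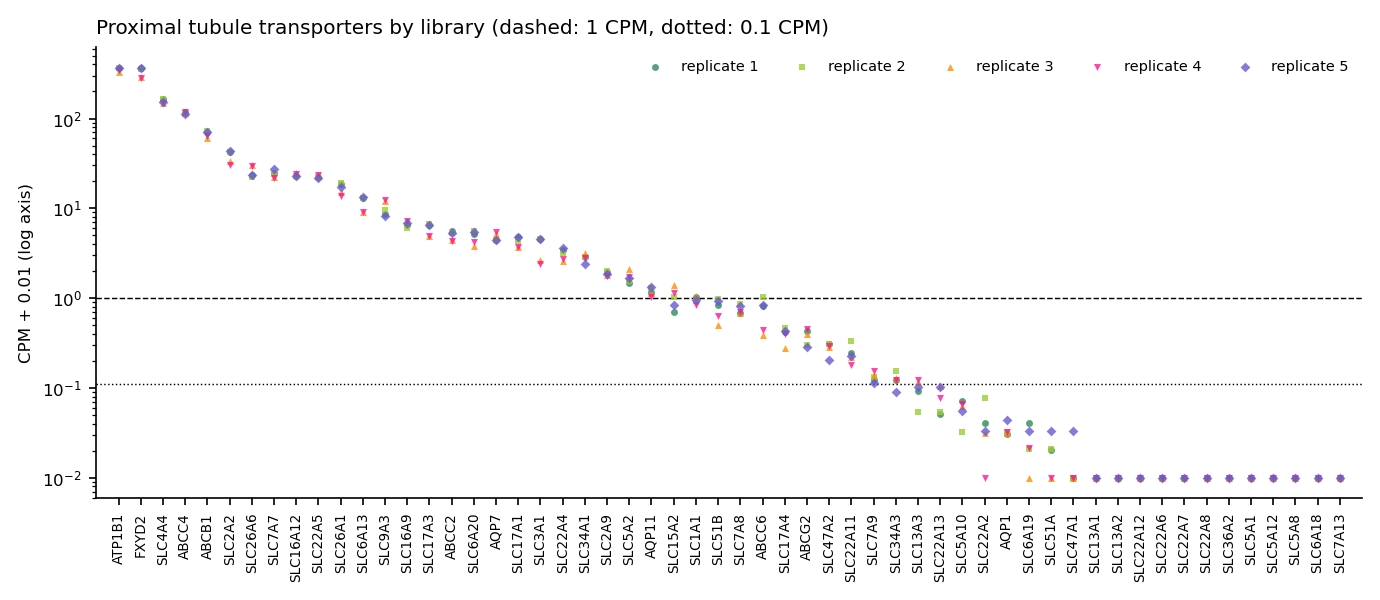
CPM of 56 proximal tubule transporters in each of the 5 libraries, on a log axis after adding 0.01 CPM, ordered by mean. ATP1B1 and FXYD2 are the highest drawn, 25 genes lie at or above 1 CPM in every library, and 12 genes lie at 0 in every library.

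Of the genes of endocytosis, 10 of 13 were present (76.9%), but not the 2 large receptors themselves. LRP2 had 0.173, 0.111, 0.235, 0.101 and 0.0458 CPM and CUBN had 0.579, 0.432, 0.695, 0.504 and 0.378 CPM. AMN (amnionless), the anchor of cubilin, was present at 9.90 ± 0.674 CPM. The adaptor DAB2 had 42.2 ± 2.08 CPM, CLCN5, the endosomal chloride-proton exchanger of Dent disease, 51.1 ± 1.47 CPM, and FCGRT, the neonatal Fc receptor, 57.3 ± 1.31 CPM. The folate receptor FOLR1 had 27.7 ± 3.08 CPM.

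Brush border and surface hydrolase genes were present in 13 of 22 cases (59.1%). DPP4, a dipeptidyl peptidase, had 709, 709, 589, 595 and 711 CPM and GGT1, the γ-glutamyl transferase that degrades glutathione, had 211, 223, 200, 201 and 229 CPM, both lowest in replicates 3 and 4. PDZK1, a scaffold of apical carriers, had 127 ± 12.7 CPM, MME (neprilysin) 56.4 ± 4.58 CPM and the villus protein VIL1 24.0 ± 0.773 CPM. ACE, a peptidase that processes angiotensins, was present at 2.10 ± 0.410 CPM. ANPEP (aminopeptidase N) and ALPL (alkaline phosphatase), both common labels of proximal cells in culture, were low at 0.328 ± 0.0822 and 0.381 ± 0.0380 CPM, and the meprin gene MEP1A had 0 counts.

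Metabolic genes of the proximal tubule were present in 17 of 37 cases (45.9%). GPX3, the secreted glutathione peroxidase, had 258, 259, 250, 250 and 266 CPM, and MIOX, the oxygenase that opens inositol, 61.6, 60.3, 66.0, 67.1 and 62.3 CPM. GATM, which starts creatine synthesis, had 21.0 ± 1.12 CPM. The enzymes of gluconeogenesis were weak or undetected. PCK1 was low at 0.363 ± 0.155 CPM, FBP1 was low at 0.271 ± 0.0740 CPM and G6PC1 had 0 counts. Of genes of glycolysis, 15 of 16 were present, with PKM at 1973 ± 131 CPM and LDHB at 1871 ± 88.5 CPM. The vitamin D enzymes CYP27B1 and CYP24A1, which make and destroy the active hormone, were present at 2.34 ± 0.316 and 6.84 ± 0.218 CPM.

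Genes of tubular injury and repair were present in 25 of 26 cases (96.2%), and only PROM1 was low, at 0.700 ± 0.161 CPM. All 20 genes of mitosis, 21 of DNA replication and 21 p53 targets were present too, so such a share is not particular to injury genes. HAVCR1 (KIM-1), the phosphatidylserine receptor that injured proximal cells display, had 498, 493, 474, 461 and 477 CPM and the libraries lay within 1.08-fold. DCDC2 had 713 ± 19.2 CPM, and SOX4 and SOX9, transcription factors of repairing tubules, had 429 ± 49.6 and 33.0 ± 1.37 CPM. CLU (clusterin), a secreted chaperone, had 516, 517, 349, 350 and 557 CPM, and VCAM1, an adhesion molecule of failed repair, had 55.7, 55.8, 42.5, 41.1 and 59.9 CPM. CLU and VCAM1 were lowest in replicates 3 and 4, as were 37.1% of the IDs with a mean of at least 5 CPM. LCN2 (NGAL), the urinary marker of acute injury, was present at 3.37, 3.32, 3.38, 3.73 and 3.80 CPM.

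Of later nephron segments, several defining genes were low or near zero and others were present. Of the thick ascending limb, 2 of 19 genes were present, CLDN16 at 8.92 ± 0.551 CPM and EGF at 5.29 ± 0.539 CPM, while UMOD (uromodulin) had 0 counts and the carrier SLC12A1 (NKCC2) 0.0176 CPM. Of intercalated cells, 1 of 17 was present, the carbonic anhydrase CA2 at 74.0 ± 2.83 CPM. Of the distal convoluted and connecting tubule, 10 of 18 were present (55.6%). Most of them were genes of wide expression such as WNK1 at 274 ± 11.4 CPM and the calcium pump ATP2B4 at 156 ± 19.1 CPM. The defining carrier SLC12A3 (NCC) was low at 0.110 ± 0.0417 CPM and PVALB had 0 counts. Of principal cells, 8 of 17 were present (47.1%), NR3C2, AQP3 and AQP4 among them, beside 45.6% of proximal transporters. SCNN1A, the α subunit of the epithelial sodium channel, had 35.1, 35.8, 37.6, 40.0 and 35.8 CPM, but SCNN1B had 0 counts, SCNN1G was low at 0.629 ± 0.121 CPM and the water channel AQP2 had 0 counts.

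Markers of non-epithelial cells were checked as a background. Of 12 leukocyte markers 5 were present, CD74 at 277 ± 16.7, CD68 at 126 ± 2.83, CSF1R at 14.5 ± 1.19, ITGAM at 1.42 ± 0.129 and CD14 at 1.36 ± 0.0757 CPM, while PTPRC (CD45) stood at 0.0385 CPM and CD3E had 0 counts. Of 14 podocyte markers 4 were present, NPNT, PLA2R1, SYNPO and PODXL at 156, 95.5, 77.1 and 7.52 CPM, with NPHS1 at 0.0288 CPM. Of 12 endothelial markers 2 were present, EGFL7 at 36.5 ± 5.20 and ERG at 1.38 ± 0.0725 CPM, with PECAM1 at 0.0265 CPM and KDR at 0. Of 15 fibroblast and mural markers 7 were present, led by RGS5 at 192 ± 9.92, NOTCH3 at 126 ± 5.73 and LUM at 86.8 ± 11.8 CPM, with PDGFRA at 0.0312 and COL3A1 at 0.00687 CPM. The summed levels ran from 403 to 443 CPM over the 5 libraries for the leukocyte list, 311 to 357 CPM for the podocyte list, 32.4 to 43.2 CPM for the endothelial list and 434 to 472 CPM for the fibroblast list. In bulk RNA, few cells with much of a message and many cells with little of it cannot be told apart.

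**Figure D3:**
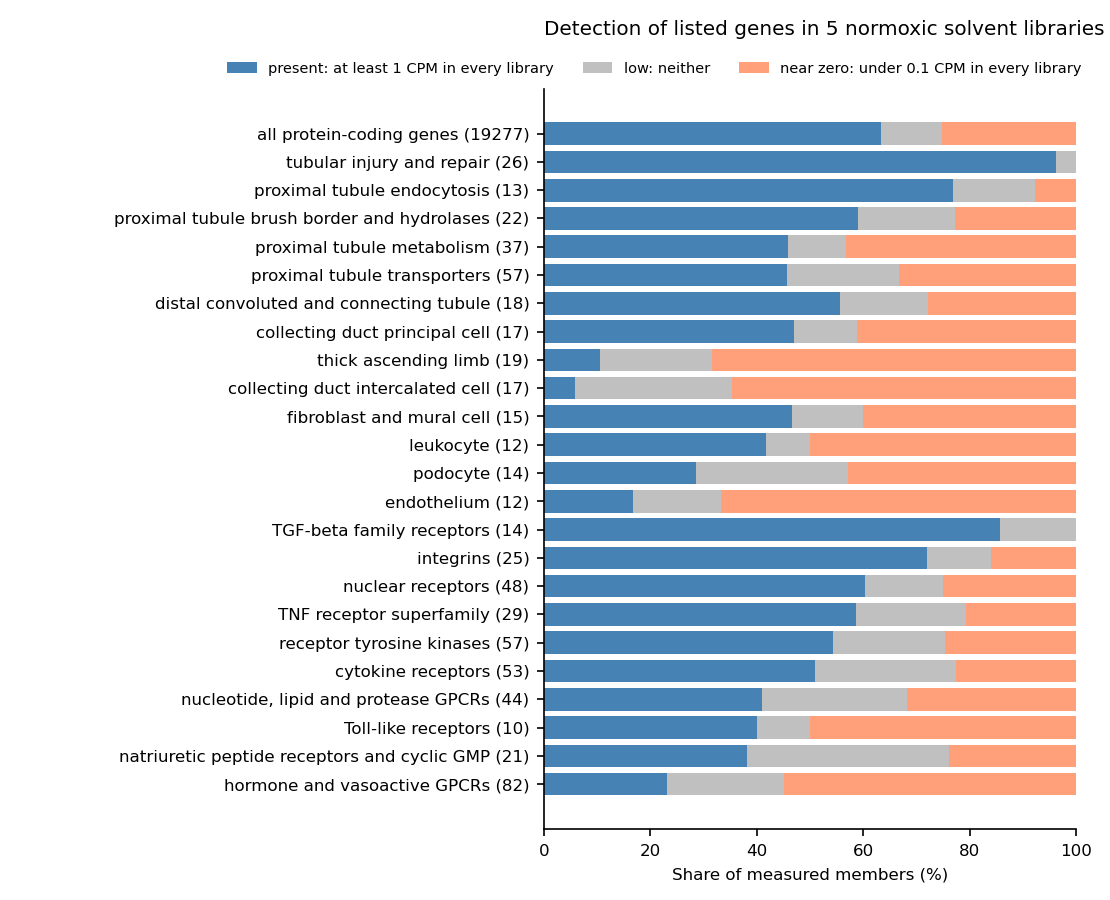
Share of the measured members of each list that were present, low or near zero in the 5 libraries, with the number of measured members in parentheses and all protein-coding genes on top (GPCR, G protein-coupled receptor). Injury and repair genes are present in 96.2% of cases and proximal transporters in 45.6%, against 63.3% of all protein-coding genes.

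Among the receptor lists, those of the TGF-β family and of integrins had the largest shares of present members, and hormone receptors had the smallest. Of 57 receptor tyrosine kinases, 31 were present (54.4%). Per kb, MET, the receptor of hepatocyte growth factor, led with 44.4 CPM per kb, followed by AXL at 32.5, EGFR at 23.1 and EPHA2 at 22.3 CPM per kb. In CPM, EGFR had 304, 309, 275, 278 and 281 and MET 322, 325, 297, 302 and 318. ERBB2 and ERBB3, partners of EGFR, had 139 ± 6.83 and 38.4 ± 2.16 CPM, and ERBB4 was low at 0.319 ± 0.0627 CPM. Of 25 integrin genes, 18 were present. ITGAV, ITGB1 and ITGB3 had 1221 ± 92.1, 780 ± 22.3 and 438 ± 42.3 CPM, and the β chains ITGB6 and ITGB8, which pair with ITGAV to activate latent TGF-β, had 22.3 ± 1.91 and 335 ± 34.2 CPM.

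Receptors of the TGF-β family were present in 12 of 14 cases (85.7%). The signalling pair of TGF-β1 itself was measured at 54.7, 53.5, 52.9, 52.7 and 53.6 CPM for TGFBR1 and 75.1, 75.3, 67.4, 64.9 and 73.7 CPM for TGFBR2, and TGFBR2 was lowest in replicates 3 and 4. Betaglycan (TGFBR3) had 4.82 ± 0.625 CPM. Of 53 cytokine receptor chains, 27 were present (50.9%). OSMR, the oncostatin M receptor, had 152 ± 12.6 CPM, its partner IL6ST (gp130) 99.7 ± 3.48 CPM and the interferon receptor chains IFNAR1 and IFNAR2 81.3 ± 2.17 and 52.0 ± 4.15 CPM. IL11RA was present at 1.48 ± 0.161 CPM and EPOR at 14.8 ± 0.252 CPM. Of 29 members of the TNF receptor superfamily, 17 were present, led by TNFRSF21 at 231 ± 3.81, LTBR at 172 ± 3.54, TNFRSF10B at 158 ± 4.77 and TNFRSF1A at 118 ± 10.5 CPM. Of 10 Toll-like receptors, 4 were present, TLR2 at 25.4 ± 0.882, TLR6 at 9.92 ± 1.10, TLR3 at 8.02 ± 1.07 and TLR4 at 2.67 ± 0.323 CPM.

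G protein-coupled receptors for hormones and vasoactive agents were present in 19 of 82 cases (23.2%), low in 18 and near zero in 45, of which 20 had 0 counts. PTGER2, a prostaglandin E2 receptor, had 54.6, 54.9, 43.8, 42.7 and 56.1 CPM and NPY1R 20.1 ± 0.820 CPM. Several receptors studied in the proximal tubule were low or near zero. PTH1R, the parathyroid hormone receptor, was low at 1.22, 1.12, 0.844, 0.941 and 1.08 CPM, with values on both sides of 1 CPM. AGTR1, the angiotensin II receptor, had 2 counts over the 5 libraries, and the dopamine receptor DRD1 and the GLP-1 receptor GLP1R had 0. The vasopressin receptor AVPR2 was low at 0.510 ± 0.0731 CPM.

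Receptors for nucleotides, lipids and proteases were present in 18 of 44 cases (40.9%). F2R and F2RL1, the protease-activated receptors cleaved by thrombin and by trypsin-like proteases, had 231, 228, 296, 302 and 226 CPM and 205, 198, 205, 211 and 205 CPM. F2R was highest in replicates 3 and 4. ADORA1, an adenosine receptor, had 34.9 ± 0.951 CPM, the cannabinoid receptor CNR1 20.4 ± 0.404 CPM and the UDP receptor P2RY6 12.1 ± 0.828 CPM.

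Of 21 genes of natriuretic peptide receptors and cyclic GMP, 8 were present (38.1%). NPR1, the membrane guanylate cyclase that binds atrial natriuretic peptide, had 306, 306, 293, 289 and 305 CPM. Soluble guanylate cyclase, the nitric oxide sensor and target of the compound used elsewhere in the series, was present with both chains, GUCY1B1 at 79.1, 74.7, 76.1, 74.7 and 75.9 CPM and GUCY1A1 at 33.5, 33.6, 35.1, 34.8 and 31.6 CPM. These 3 genes differed little between libraries, at most 1.11-fold on the log2(CPM + 0.5) scale. GUCY1A2, the alternative α chain, had 11.4 ± 0.638 CPM. Downstream, the kinases PRKG1 and PRKG2 were low at 0.554 ± 0.116 and 1.15 ± 0.217 CPM, and PDE5A, which degrades cyclic GMP, was present at 3.17 ± 0.115 CPM. The nitric oxide synthases NOS2 and NOS3 were low at 0.555 ± 0.0641 and 0.472 ± 0.0627 CPM.

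Nuclear receptors were present in 29 of 48 cases (60.4%). PPARD had 130 ± 14.8 CPM, NR2F2 130 ± 8.91 CPM, RXRA 126 ± 6.78 CPM and the glucocorticoid receptor NR3C1 61.9 ± 3.28 CPM. The mineralocorticoid receptor NR3C2 had 14.9 ± 0.828 CPM and the vitamin D receptor VDR 5.94 ± 0.196 CPM. ESR1 was near zero at 0.0173 CPM and PGR had 0 counts. RXRB was low at 0, 0, 0, 0.157 and 0.195 CPM. Whether reads of RXRB were listed under another ID, as measured for SHMT1, was not tested.

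Of 375 solute carrier genes, 222 were present (59.2%), 47 low and 106 near zero, of which 54 had 0 counts. The share present differed between families. SLC25 (mitochondrial carriers) had 38 of 47 members present, SLC35 (nucleotide sugar carriers) 21 of 28, SLC38 (neutral amino acids) 10 of 11, SLC16 (monocarboxylates) 11 of 14 and SLC39 (zinc) 11 of 14. SLC12 (cation-chloride carriers) had 7 of 9 present, SLC34 (phosphate) 2 of 3, SLC4 (bicarbonate) 6 of 10 and SLC9 (sodium-proton exchangers) 7 of 13. SLC22 (organic ions) had 8 of 22 present and 12 near zero, SLC5 (sodium-coupled sugars and anions) 3 of 12 and 7 near zero, SLC6 9 of 19, and SLC13 (dicarboxylates and sulfate) 0 of 5. All 24 listed carriers of glucose, lactate and amino acids of growing cells were present. SLC38A2 had 435 ± 9.62 CPM, the lactate carrier SLC16A1 (MCT1) 333 ± 16.9 CPM, the glucose carrier SLC2A1 (GLUT1) 181 ± 16.0 CPM and the glutamine carrier SLC1A5 172 ± 7.36 CPM. Per kb, GLUT1 at 38.3 CPM per kb lay above GLUT2 (SLC2A2) at 11.3 and SGLT2 (SLC5A2) at 0.380 CPM per kb.

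Of 93 potassium channel genes, 33 were present (35.5%). KCNJ16, a subunit of basolateral potassium channels of the tubule, had 256, 261, 245, 245 and 251 CPM, KCNJ15, a partner of it in the proximal tubule, 39.8, 42.7, 30.4, 28.7 and 40.9 CPM, and KCNJ10, its partner in the distal tubule, was near zero at 0.0156 CPM. The pH-sensitive channel KCNK5 had 20.5 ± 3.62 CPM. Of 12 aquaporins, 4 were present, AQP7 at 4.77 ± 0.498, AQP3 at 2.66 ± 0.642, AQP4 at 1.77 ± 0.207 and AQP11 at 1.18 ± 0.116 CPM. Of 39 HOX genes, the patterning factors of body position, 30 were present, led by HOXA9 at 128 ± 6.99 CPM. Of 20 genes of mitosis and 21 of DNA replication, all were present, MKI67 at 475 ± 16.4 CPM and MCM7 at 428 ± 10.7 CPM among them.

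Variation between the 5 cultures was small for most genes. Over 12173 IDs with a mean of at least 5 CPM, the median SD of log2(CPM + 0.5) was 0.07 and the 90th percentile 0.17, and the median ratio of the highest to the lowest library was 1.12. The common biological coefficient of variation from edgeR was 0.114. A difference of at least 2-fold between the highest and lowest library was seen for 109 IDs (0.895%) and of at least 1.5-fold for 476 (3.91%). Of 11208 named genes, 45 reached 2-fold (0.401%). Without replicates 3 and 4 the count of 109 became 43, and without replicates 1, 2 and 5 it became 26. Replicates 3 and 4 were the lowest pair for 4515 of the 12173 IDs (37.1%) and the highest pair for 3597 (29.5%), together 66.6%.

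**Figure D4:**
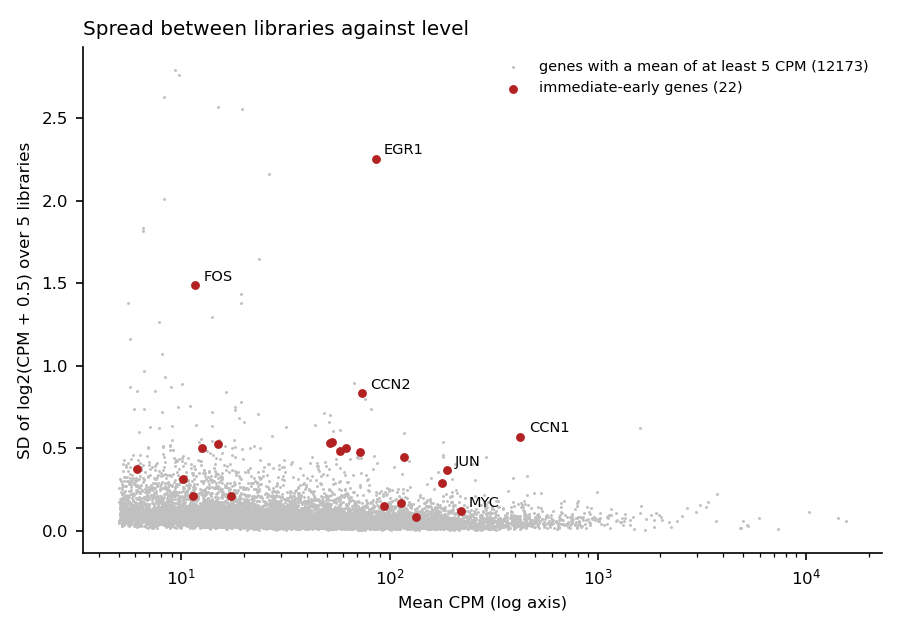
SD of log2(CPM + 0.5) over the 5 libraries against mean CPM (log axis) for the 12173 IDs with a mean of at least 5 CPM in grey, with the 22 immediate-early genes among them in red. EGR1 and FOS have SDs of 2.26 and 1.49 against a median of 0.07 for all IDs.

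The named gene that varied most was EGR1, an immediate-early transcription factor, of the class of genes that growth factors induce without new protein synthesis. Its values were 149, 133, 7.78, 7.19 and 133 CPM in replicates 1 to 5, a 19.4-fold range on the log2(CPM + 0.5) scale. FOS, a subunit of the AP-1 transcription factor, had 18.3, 17.9, 2.40, 2.18 and 17.4 CPM. CCN2, which encodes the matricellular protein known as connective tissue growth factor, had 106, 98.9, 34.4, 34.4 and 94.6 CPM, and its relative CCN1 had 556, 528, 264, 257 and 525 CPM. In each of these 4 genes replicates 3 and 4 lay close together and far below replicates 1, 2 and 5, without overlap. Of 22 immediate-early genes with a mean of at least 5 CPM, 6 reached 2-fold and 15 reached 1.5-fold, and 21 were lowest in replicates 3 and 4, beside 37.1% of all IDs. Their median SD was 0.46 on the log2 scale. The remaining member, BTG2, an antiproliferative gene, was highest there, at 10.2, 10.2, 13.1, 13.6 and 10.1 CPM. MYC and JUND were among the members that differed least, at 234, 229, 199, 200 and 235 and 145, 140, 127, 127 and 134 CPM.

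The promoters of EGR1, CCN2, DUSP1 and CLK1 are shown because these genes lay apart together in replicates 3 and 4. Each window is the 250 bases before the transcription start in RefSeq (GRCh38.p14), printed 5′ to 3′ on the gene's strand. Capitals mark matches, on either strand, to the CArG box bound by serum response factor, to GGAATG, the core bound by TEAD factors, and to TGACGTCA, the full cyclic AMP response element. Of 35116 promoter windows of this length, 1.16% held a CArG box, 11.9% held GGAATG and 1.65% held TGACGTCA. EGR1 (chr5:138465229-138465478, plus strand), CCN2 (chr6:131951373-131951622, minus strand) and DUSP1 (chr5:172771196-172771445, minus strand), which encodes a phosphatase of MAP kinases, belong to the genes lowest in replicates 3 and 4. CLK1 (chr2:200864659-200864908, minus strand), which encodes a kinase of splicing factors, belongs to those highest there.
EGR1: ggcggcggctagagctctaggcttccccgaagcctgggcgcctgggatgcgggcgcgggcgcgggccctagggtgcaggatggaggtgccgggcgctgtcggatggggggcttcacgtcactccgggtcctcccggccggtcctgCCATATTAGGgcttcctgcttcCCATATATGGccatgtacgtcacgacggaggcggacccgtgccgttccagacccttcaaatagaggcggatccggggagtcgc
CCN2: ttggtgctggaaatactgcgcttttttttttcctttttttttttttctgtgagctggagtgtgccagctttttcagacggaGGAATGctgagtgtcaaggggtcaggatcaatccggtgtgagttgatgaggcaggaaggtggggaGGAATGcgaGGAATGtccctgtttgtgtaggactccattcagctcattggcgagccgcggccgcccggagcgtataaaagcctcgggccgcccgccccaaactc
DUSP1: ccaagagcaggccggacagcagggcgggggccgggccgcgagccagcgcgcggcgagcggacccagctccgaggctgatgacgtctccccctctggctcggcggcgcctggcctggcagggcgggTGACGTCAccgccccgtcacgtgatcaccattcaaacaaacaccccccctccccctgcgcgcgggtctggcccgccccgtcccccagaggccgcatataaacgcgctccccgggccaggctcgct
CLK1: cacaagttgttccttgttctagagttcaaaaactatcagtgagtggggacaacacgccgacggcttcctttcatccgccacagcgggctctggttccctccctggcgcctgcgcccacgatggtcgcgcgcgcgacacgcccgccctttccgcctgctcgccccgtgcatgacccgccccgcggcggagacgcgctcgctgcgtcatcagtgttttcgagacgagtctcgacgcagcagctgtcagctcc

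EGR1 held 2 CArG boxes, 105 and 83 bases before its start. CCN2 held GGAATG 3 times, at 169, 104 and 95 bases, and DUSP1 held 1 cyclic AMP response element at 125 bases. SOCS3, a feedback inhibitor of cytokine signalling and also lowest in replicates 3 and 4, held GGAATG once, at 114 bases. Its window, the first of 2 listed, spans chr17:78360926-78361175 on the minus strand, while GENCODE 29 places the gene start at 78360077. The windows of FOS, JUNB, RHOB, ATF3 and GADD45B, which were lowest in the same libraries, held none of the 3 motifs, so 4 of 9 windows searched for such genes held a match. None of the 3 windows of genes highest there, CLK1, RSRP1 and IGFN1, held one. Of all promoter windows, 14.3% held at least 1 of the 3 motifs. These genes were chosen after their values were seen, and the first listed window was used where a gene had several. The 3 motifs were also picked by hand, so these shares make no test, and 3 windows are too few to compare. Whether a motif relates to the levels was not tested. A match describes the letters of the window and is not a measured site. Listed target genes with a mean of at least 5 CPM were also counted. Of 17 YAP and TEAD targets, 6 were lowest in replicates 3 and 4, 5 were highest, and 2 reached 2-fold. Of 12 actin and serum response factor targets, 11 were lowest there and none reached 1.5-fold. Of all IDs, 37.1% were lowest and 29.5% highest there.

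Among the most variable named genes, several feedback and stress genes were also low in replicates 3 and 4, and these may overlap the immediate-early list. Of the 30 named genes with the largest SD, 14 had replicates 3 and 4 as the lowest pair, 7 had them as the highest pair and 9 followed another order, and in 20 the libraries of replicates 3 and 4 lay at least 1.5-fold from all others. SOCS3 had 94.3, 91.5, 29.5, 29.2 and 91.7 CPM, and SMAD7, the feedback inhibitor of TGF-β receptors, had 23.2, 22.9, 10.7, 11.3 and 21.4 CPM. RHOB, a GTPase of the actin cytoskeleton, had 109, 106, 43.0, 40.8 and 107 CPM and GADD45B, a stress gene, 15.6, 14.7, 6.12, 6.89 and 15.4 CPM. The same order held for the decoy receptor TNFRSF6B at 15.6, 15.1, 7.94, 7.14 and 16.5 CPM and for RN7SL1 and RN7SL2, the RNAs of the signal recognition particle, RN7SL2 at 197, 234, 116, 114 and 245 CPM. RN7SL1 and RN7SL2 are near-identical copies, so their reads cannot be cleanly divided. DUSP1, JUNB and ATF3 completed the 14, from 32.9 to 70.0, 31.7 to 65.3 and 9.33 to 18.8 CPM.

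**Figure D5:**
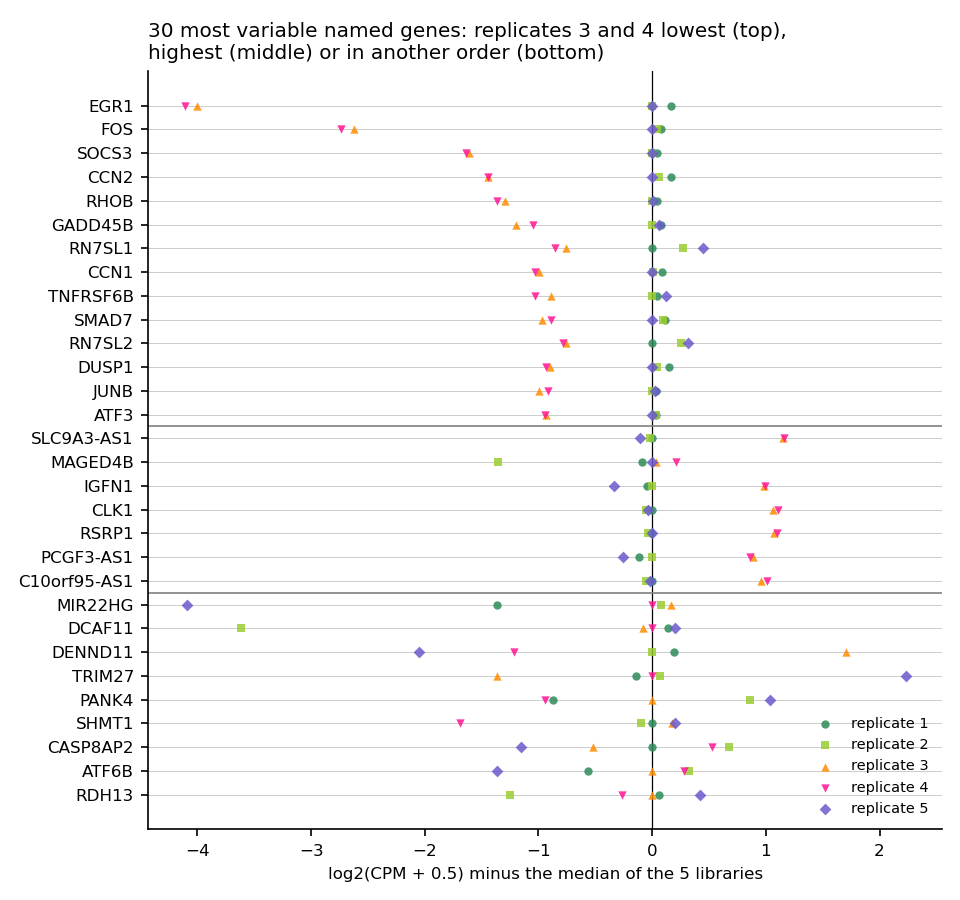
log2(CPM + 0.5) of each library minus the median of the 5, for the 30 named genes with the largest SD. In the top 14 genes replicates 3 and 4 are the lowest pair, in the next 7 the highest, and in the last 9 the order differs from gene to gene.

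Genes highest in replicates 3 and 4 included 2 genes tied to splicing. CLK1 had 39.9, 38.5, 84.1, 86.7 and 38.8 CPM and RSRP1, which encodes a protein rich in arginine and serine, 36.8, 36.0, 78.1, 79.9 and 37.0 CPM. IGFN1, an immunoglobulin and fibronectin domain gene known from muscle, had 1149, 1188, 2348, 2359 and 941 CPM and took the largest differences in absolute level among these genes. These 3 were grouped because replicates 3 and 4 were their highest pair, as they were for 29.5% of all IDs. SLC9A3-AS1, a transcript antisense to SLC9A3, had 34.7, 34.3, 77.8, 78.3 and 32.2 CPM. SLC9A3, its partner, had its highest values in the same libraries, and since it is not given whether strand was used, the reads of PCGF3-AS1, C10orf95-AS1, SLC9A3-AS1 and their partner genes may not be separated. MAGED4B had 33.0, 13.4, 36.0, 40.8 and 35.1 CPM, and its near-identical copy MAGED4 took 98.5, 113, 84.5, 77.0 and 92.9 CPM. The MAGED4B and MAGED4 sum ran from 118 to 132 CPM with an SD of 5.64 CPM, against 10.6 CPM for MAGED4B alone.

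The 9 genes of other order followed no shared order. DCAF11, a substrate receptor of a ubiquitin ligase, had 30.6, 1.81, 26.3, 27.8 and 31.9 CPM, low in replicate 2 alone. An ID without a symbol, ENSG00000284796, had 40.2, 69.6, 43.5, 42.0 and 40.3 CPM in the same libraries, highest where DCAF11 was lowest. DCAF11 and that ID summed to 69.8 to 72.3 CPM, with an SD of 1.07 CPM against 12.4 CPM for DCAF11 alone. SHMT1, the cytosolic serine hydroxymethyltransferase, had 84.1, 78.5, 94.8, 25.6 and 96.9 CPM, low in replicate 4 alone, and ENSG00000284320 had 48.7, 47.7, 30.3, 101 and 30.3 CPM. SHMT1 and that ID summed to 125 to 133 CPM, with an SD of 2.99 CPM against 29.1 CPM for SHMT1 alone. Both IDs, and MAGED4, were chosen after their values were seen. TRIM27 had 7.67, 8.95, 3.00, 8.52 and 41.9 CPM, DENND11 18.1, 15.8, 52.6, 6.52 and 3.42 CPM and MIR22HG, the host transcript of a microRNA, 3.26, 9.73, 10.3, 9.18 and 0.0687 CPM. The mean of DENND11 was 19.3 CPM and 10.9 CPM without replicate 3, and that of TRIM27 was 14.0 CPM and 7.06 CPM without replicate 5. PANK4, CASP8AP2, ATF6B and RDH13 ranged from 3.38 to 14.9, 4.48 to 17.2, 9.73 to 32.6 and 3.82 to 13.3 CPM. An ID without a symbol, ENSG00000234495, had 32.1, 33.1, 37.8, 27.8 and 0.664 CPM in replicates 1 to 5, lowest where TRIM27 was highest. Another, ENSG00000234539, had 21.0, 7.54, 15.0, 7.93 and 30.1 CPM, highest in replicate 5, where ATF6B was lowest. These IDs were also picked after their values were seen. Whether TRIM27, ATF6B or the other genes of this kind share reads with another ID was not tested. Of the 109 IDs that reached 2-fold, 64 had no symbol or a locus name, beside 965 of the 12173, and 56 were not in GENCODE 29, beside 858 of the 12173.

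The same genes were then measured in the other groups of 5 normoxic libraries, which did not choose them, 1 with TGF-β1 and 1 with TGF-β1 and the BAY compound named in the labels. With TGF-β1, 28 of the 30 genes had a mean of at least 5 CPM and 21 of these reached 2-fold between libraries, beside 0.816% of all IDs in that group. With TGF-β1 and the compound, 15 of 28 did, beside 0.919%. EGR1 had 32.3, 32.1, 7.18, 6.96 and 7.28 CPM in replicates 1 to 5 with TGF-β1, and CCN2 had 78.5, 74.0, 25.6, 24.9 and 23.8 CPM. There, replicates 3, 4 and 5 were low and replicates 1 and 2 high, and CLK1 had the opposite order, at 28.3, 28.5, 58.3, 59.8 and 59.5 CPM. With TGF-β1 and the compound, EGR1 had 25.4, 24.1, 5.87, 6.55 and 5.72 CPM, CCN2 25.4, 25.5, 7.30, 8.21 and 8.34 CPM and CLK1 35.7, 36.0, 69.9, 66.0 and 65.8 CPM, in the same order. FOS varied less in these groups, at 3.67, 4.76, 3.17, 3.08 and 3.47 CPM with TGF-β1. DUSP1 and JUNB ranged over 1.12-fold and 1.20-fold with TGF-β1. The ID of DCAF11 again differed between libraries, at 23.4, 23.3, 0, 0 and 18.6 CPM with TGF-β1. MIR22HG did not, at 16.9, 18.7, 19.6, 18.2 and 19.5 CPM. The sum of DCAF11 with ENSG00000284796 was not taken in these groups. The counts of 21 and 15 are of single IDs, DCAF11 among them, and whether they trade reads with other IDs was not tested there.

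Among pathway lists, the position of replicates 3 and 4 varied. Of ribosomal protein genes with a mean of at least 5 CPM, 74 of 80 were lowest in replicates 3 and 4, as were 14 of 15 genes of glycolysis, 13 of 17 of endoplasmic reticulum chaperones and 12 of 20 of mitosis, beside 37.1% of all IDs. Of genes of cholesterol synthesis 13 of 22, and of DNA replication 11 of 21, were highest in replicates 3 and 4, beside 29.5%. The sizes were mostly small. HSPA5, the main chaperone of the endoplasmic reticulum, had 752, 724, 599, 587 and 764 CPM, GAPDH 3175, 3044, 2736, 2711 and 3176 CPM and INSIG1, a regulator of sterol synthesis, 130, 124, 149, 158 and 129 CPM. CCNE2, a cyclin of S phase entry, had 19.5, 20.6, 28.7, 28.1 and 21.6 CPM, highest in replicates 3 and 4. No member of these 6 lists reached 2-fold. Of the 17 endoplasmic reticulum genes, 2 reached 1.5-fold, and no member of the other lists did.

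The least variable genes with a mean of at least 50 CPM were CSNK1G2, DDX21, HNRNPA1, TTL, DDRGK1, SYNCRIP, GOLGA3, PNPLA2, VPS41 and DDX42. CSNK1G2, a casein kinase, had 71.2, 70.9, 71.1, 70.9 and 71.2 CPM. HNRNPA1, an RNA-binding protein of splicing, had 1686, 1682, 1683, 1683 and 1696 CPM. The usual reference genes spread more, ACTB from 2728 to 3446 CPM and GAPDH from 2711 to 3176 CPM, both lowest in replicates 3 and 4.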

How the data were processed

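RNA of HK-2 cells was sequenced as poly(A) libraries, and the 5 libraries labelled normoxia and solvent were used, with the 5 libraries each of TGF-β1 and of TGF-β1 with the BAY compound for the spread of the variable genes. The authors deposited a table of estimated counts per Ensembl gene ID (65180 IDs), of which 49.3% of values above 0 were not whole (tolerance 1e-06). Salmon, DESeq2 and GRCh38 (hg38) are named, per the submitters' processing notes; no source used here gives the versions, annotation or strandedness. Where transcripts share sequence, Salmon splits their reads by estimate, and near-identical genes and parallel IDs can trade counts.

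Counts were rounded and scaled by TMM (edgeR 4.0.16, R 4.3.3) over the 5 libraries. Symbols matched 58919 IDs. The 6261 IDs without a symbol took 4.28% of counts and stayed in library sizes. Lengths came from GENCODE 29 (54637 IDs matched), which may not be the authors' annotation. With depths of 87762210 to 99779244 counts, 3 counts equal 0.0305 to 0.0343 CPM per library, a limit that covers counting error only. With 1 group there is no test and no p-value. Spread was taken on log2(CPM + 0.5) for a mean of at least 5 CPM. Recovery of the dispersion was tested on simulated data. The libraries, the 44 gene lists and 15 gene families were chosen with earlier results of these data known. Of 1037 listed symbols, 15 were not analysed here, and some that count in the lists are not reported here by name. Genes named are the 25 most abundant in CPM and 15 per kb, the highest and the defining low members of each list, the 30 with the largest and 10 with the smallest SD. Python 3.11.15, pandas 2.3.3 and matplotlib 3.10.9 were used. Alternatives were DESeq2 1.42.0 size factors, plain CPM, library sizes without mitochondrial genes, unrounded counts, other thresholds and filters, a pseudocount of 2 CPM, other gene lengths, and leaving out each library.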

Additional observations from a re-analysis of the deposited data

Results flagged for a closer look

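Of 225 named genes with a mean of at least 1 CPM, 7 had 1 library whose gap to the nearest other, as a share of the range over the 5 libraries, passed Dixon's 95% critical value. Chance flags about 1 in 20 groups of 5 values drawn alike. That rate does not strictly hold here, because 30 of these genes were chosen for the largest SD in the same libraries. A further 10 were chosen for the smallest. DCAF11 was low in replicate 2, at 1.81 CPM, against 26.3 to 31.9 CPM in the others. SHMT1 was low in replicate 4, at 25.6 CPM, against 78.5 to 96.9 CPM, and MAGED4B was low in replicate 2, at 13.4 CPM, against 33.0 to 40.8 CPM. TRIM27, a ubiquitin ligase gene, was high in replicate 5, at 41.9 CPM, against 3.00 to 8.95 CPM. These are levels of single IDs. Summed with their parallel IDs, DCAF11, SHMT1 and MAGED4B had SDs of 1.07, 2.99 and 5.64 CPM, against 12.4, 29.1 and 10.6 CPM alone. For TRIM27 no sum was taken, and ENSG00000234495 had 0.664 CPM in replicate 5. The other 3 genes lay apart by far less: HNRNPA1 was 1696 CPM in replicate 5 against 1682 to 1686 CPM, CA2 was 78.9 CPM in replicate 5 against 71.9 to 73.9 CPM, and ABCC4 was 111 CPM in replicate 5 against 116 to 118 CPM.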

How the results depend on the processing

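No paired analysis was possible because the results come from no test: 1 group was described. The count of IDs that differed by at least 2-fold between libraries was 109, and it became 300 with a mean of at least 1 CPM, 564 with no filter on low counts and 476 at 1.5-fold. In alternatives chosen after seeing the data, it was 43 without replicates 3 and 4 and 26 without replicates 1, 2 and 5, where fewer libraries also leave less room for a range. Leaving out each library in turn gave 88 to 94. The 100 most abundant genes took 20.1% of counts, and 15.0% without mitochondrially encoded genes. Present IDs ran from 14493 to 15647 over all alternatives, and near-zero IDs from 30882 (0 counts) to 44146. The common biological coefficient of variation ran from 0.109 to 0.122 with each library left out and was 0.152 with no filter. Present members over all lists and families numbered 1063 of 1853, and 1063 to 1124 under the alternatives. Of the lists, intercalated cell genes went from 1 to 3 present at 0.5 CPM, and replication-dependent histones from 9 to 14. Of the levels per kb, 11 of 28 moved by more than the spread between libraries with the length of the longest transcript. Depth does not limit calls at 1 CPM, but values under about 0.03 CPM rest on 3 counts or fewer per library.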
